A study of Rattus norvegicus with 16 samples.

Results

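Phgdh, Psat1, Psph, Shmt2, Mthfd2, Aldh1l2, Aldh18a1, Pycr1, Asns and Pck2 encode enzymes that make serine, proline and asparagine, carry carbon units on folate in mitochondria, and make phosphoenolpyruvate there. These 10 genes were chosen by name, as enzymes linked to the transcription factor ATF4. They and the gene lists used below were chosen with earlier results of these data known. Each symbol was found once among the 32623 genes of the rat count table. Counts were above 0 somewhere in the 16 libraries for 22082 of those.

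Phgdh, Psat1 and Psph act in turn on a glycolytic intermediate and release serine, and Shmt2 passes a carbon of serine to mitochondrial tetrahydrofolate, where Mthfd2 and Aldh1l2 oxidise it. Aldh18a1 and Pycr1 begin and complete the synthesis of proline from glutamate, Asns makes asparagine from aspartate with nitrogen from glutamine, and Pck2 makes phosphoenolpyruvate from oxaloacetate. Translation of ATF4 increases in the integrated stress response, and ATF4 drives transcription of many of these genes. The proximal tubule of the kidney makes serine and, in acidosis, uses glutamine for ammonia and glucose synthesis, with more of the cytosolic phosphoenolpyruvate carboxykinase Pck1.

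RNA was measured in 16 libraries, 4 for each combination of cell line and medium pH. NRK-52E is an epithelial line from normal rat kidney, labelled as derived from the proximal tubule, while the NRK-49F line consists of fibroblasts from normal rat kidney. In each well NRK-49F cells lay at the bottom and NRK-52E cells on a filter hung above them, so that both lines shared medium. All were kept for 24 h without serum and then for 48 h in medium of pH 7.4 or pH 6.0, which the labels write as 7 and 6. The comparison of pH 6.0 with pH 7.4 in each line asks how acid medium changes its transcripts in co-culture, and an interaction contrast asks whether that effect differs between the lines. A difference in level between the lines goes with a difference in growth support, and these cannot be told apart.

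Polyadenylated RNA was sequenced as paired reads, and the deposited values are raw fragment counts over the exons of each gene. Totals ran from 17760185 to 20612657 in NRK-52E at pH 7.4 (median 19132387.5), and from 16844811 to 23856187 at pH 6.0 (median 21199012). In NRK-49F they ran from 17518187 to 27607214 at pH 7.4 (median 20316553.5), and from 16201084 to 34784862 at pH 6.0 (median 29093537). Levels below are FPM, counts scaled to library size (cpm in edgeR, TMM factors from all 16 libraries), and the 4 values of a group follow the order of the library numbers. These are N1, N2, N5 and N6 for NRK-52E at pH 7.4, N3, N4, N7 and N8 at pH 6.0, N9, N10, N13 and N14 for NRK-49F at pH 7.4, and N11, N12, N15 and N16 at pH 6.0. The column names carry another number of unstated meaning, 21 for N1 to N4, 22 for N5 to N8, 20 for N9 to N12 and 21 for N13 to N16. It parts the first and last pairs of values in each group, and the depth of the NRK-49F libraries at pH 6.0 went with it, at 23872685 and 16201084 counts under number 20 and 34314389 and 34784862 under number 21. FPM are not divided by transcript length, so levels are compared between groups and not between genes.

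Markers bore out the cell line labels only in part. The summed level of 6 epithelial markers was 468, 435, 397 and 452 FPM in NRK-52E at pH 7.4 and 354, 286, 315 and 296 FPM at pH 6.0. In NRK-49F the sum was 833, 795, 955 and 849 FPM at pH 7.4 and 208, 220.0, 202 and 199 FPM at pH 6.0. Krt8 made up nearly all of it in every group, with mean levels of 434, 311, 855 and 206 FPM in the same order, so this sum was highest in the fibroblast line at pH 7.4. The epithelial cadherin Cdh1 had a mean level of 1.63 FPM in NRK-52E at pH 7.4 and 0.310 at pH 6.0, with 0 counts in NRK-49F at pH 7.4 and 0.230 FPM at pH 6.0. Epcam had 2, 1, 2 and 0 counts in the 4 groups, and Cldn1 had 0 counts at pH 6.0 in both lines. A total of 0 counts over a group allows up to 0.0333 and 0.0351 FPM in NRK-52E at pH 7.4 and pH 6.0, and 0.0389 and 0.0298 FPM in NRK-49F (3 counts), floors that cover counting error only.

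The summed level of 8 fibroblast markers was 7281, 7685, 6661 and 7704 FPM in NRK-49F at pH 7.4 and 9398, 8776, 9348 and 7743 FPM at pH 6.0, mostly Col1a1. NRK-52E had 6478, 6458, 6383 and 6231 FPM at pH 7.4 and 3215, 2941, 2569 and 1827 FPM at pH 6.0, mostly Col3a1. Pdgfra parted the lines, with mean levels of 395 FPM in NRK-49F and 0.289 FPM in NRK-52E at pH 7.4, while Thy1 had 0 counts in all 16 libraries and Lum had 0 in NRK-52E at pH 6.0. The summed level of 6 proximal tubule markers was 46.4, 42.8, 28.7 and 35.9 FPM at pH 7.4 and 26.8, 28.9, 23.5 and 34.8 FPM at pH 6.0 in NRK-52E, mostly Aqp1. It was higher in NRK-49F, with 130.3, 120.0, 147 and 158 FPM at pH 7.4 and 358, 381, 542 and 542 FPM at pH 6.0, mostly Ggt1, and the phosphate transporter Slc34a1 had 0 counts in NRK-52E at both pH values. The groups are therefore called by the names of the lines.

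Some markers moved with pH, as did many other genes. Over all genes tested, 28.2% were called higher and 28.5% lower at pH 6.0 in NRK-52E, and 18.4% and 19.4% in NRK-49F. Of the epithelial markers tested, 3 of 3 were called lower at pH 6.0 in NRK-52E and 2 of 3 in NRK-49F, and Krt8 had log2 fold changes of −0.47 and −2.06 in that order. Within numbers 21 and 22 of NRK-52E, Krt8 had −0.50 and −0.45 and was called in neither. Of the fibroblast markers, 4 of 5 were called lower in NRK-52E and 3 of 6 in NRK-49F (5 without N16, within number 20, with the label number as covariate or at FDR below 0.05), and of the proximal tubule markers, 1 of 4 lower in NRK-52E, and 1 of 4 higher and 1 lower in NRK-49F. Within numbers 21 and 22 of NRK-52E, 5244 of 13903 and 2820 of 13952 of all genes were called, against 7793 of 13735 from both. In NRK-52E, 1 epithelial marker was called within number 21 and 0 within number 22, and 2 proximal tubule markers without N3, without N6 or with no filter on low counts, and 0 within number 22 or with at least 1 CPM in 4 libraries. That last filter left 1 epithelial and 1 proximal tubule marker called in NRK-49F. While Col1a1 made up most of the fibroblast sum of NRK-49F, Col3a1 fell there with −3.10 (SE 0.28), and in NRK-52E with −1.26 (SE 0.16). Pdgfrb fell with −1.53 (SE 0.16) in NRK-52E and −2.01 (SE 0.21) in NRK-49F, Postn with −2.37 (SE 0.23) in NRK-52E, and Ggt1 rose with 1.87 (SE 0.16) in NRK-49F. Their part in the values below was not tested.

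In NRK-52E, 9 of the 10 genes passed the filter on low counts, and 7 of these 9 were called higher at pH 6.0, against 28.2% of the 13735 genes tested that were called higher and 28.5% called lower. A gene was called where its adjusted p was below 0.01 in both edgeR and DESeq2, and fold changes, their SE and adjusted p-values are from edgeR. The median log2 fold change of the 9 was 1.67, against 0.00 over all genes tested. In NRK-49F, all 10 passed the filter and 6 were called higher, against 18.4% of 13339 genes called higher and 19.4% called lower, with a median log2 fold change of 0.96 against 0.00. The 6 include Aldh1l2, which had 7 to 28 counts per library at pH 7.4 and 84 to 169 at pH 6.0. It passed the filter only with the help of its pH 6.0 libraries. Over the 9 genes without it, the median in NRK-49F was 0.67. With library totals in place of TMM in edgeR, and the DESeq2 fit left as it was, all genes of NRK-52E had a median of −0.21. Of the 9 genes tested there, 7 were still called. All genes of NRK-49F had a median of 0.04 under this setting, with 6 of the 10 called. The p-values measure the spread among these libraries, which nothing in the labels shows to be separate cultures. As each library is a bulk sample, more cells with a transcript and more of it per cell cannot be told apart.

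The ranges of the 4 values at each pH did not overlap for 8 of the 10 genes in NRK-52E and for 6 in NRK-49F, each time with pH 6.0 higher. Over all genes tested, the ranges lay apart with pH 6.0 higher for 30.4% in NRK-52E and 23.8% in NRK-49F. A two-sided exact permutation test of log2(FPM + 1) over the libraries gave p = 0.0286 for each gene with ranges apart. Separate ranges of 4 against 4 values always give this smallest possible result, so the test adds nothing to the overlap counts. The pH effect differed between the lines for 5 of the 10, by the interaction contrast over all 16 libraries. It was called positive for 4, against 19.3% of 14679 genes, and negative for 1, against 17.5%. A positive value means a higher log2 fold change, with its sign, in NRK-52E than in NRK-49F. The per-gene plots of levels and the plot of pH effects show these values.

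**Figure D1:**
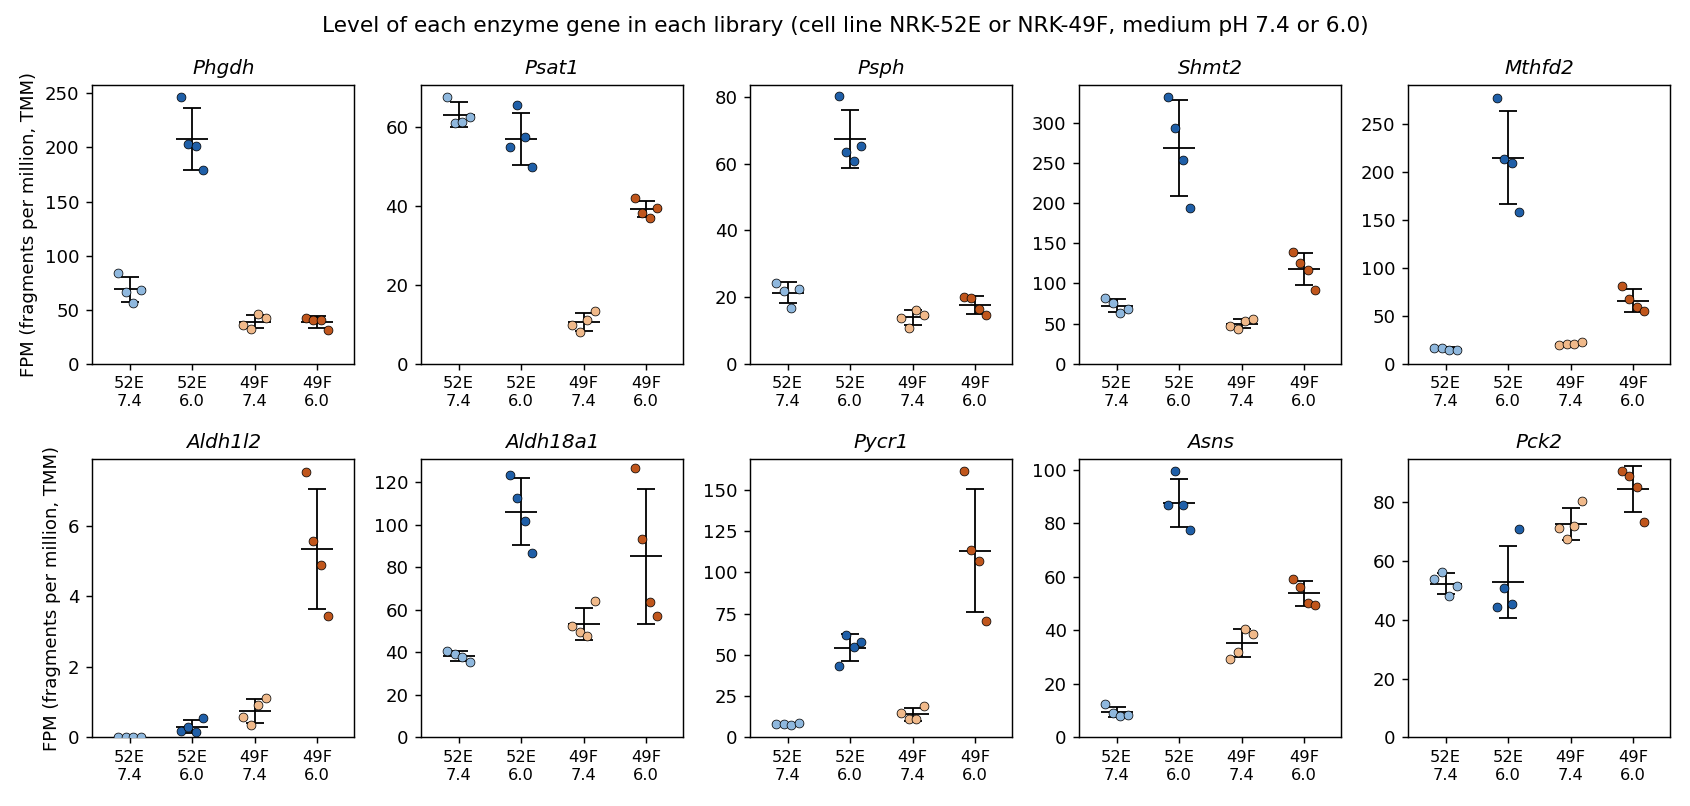
Level of each gene in FPM (vertical axes, linear from 0) in every library of the 4 groups of cell line and pH, with the mean and SD of each group (n = 4). Mthfd2 and Asns were higher at pH 6.0 in both lines and more so in NRK-52E, Phgdh and Psph were apart in NRK-52E alone, and Psat1 was apart in NRK-49F alone.

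**Figure D2:**
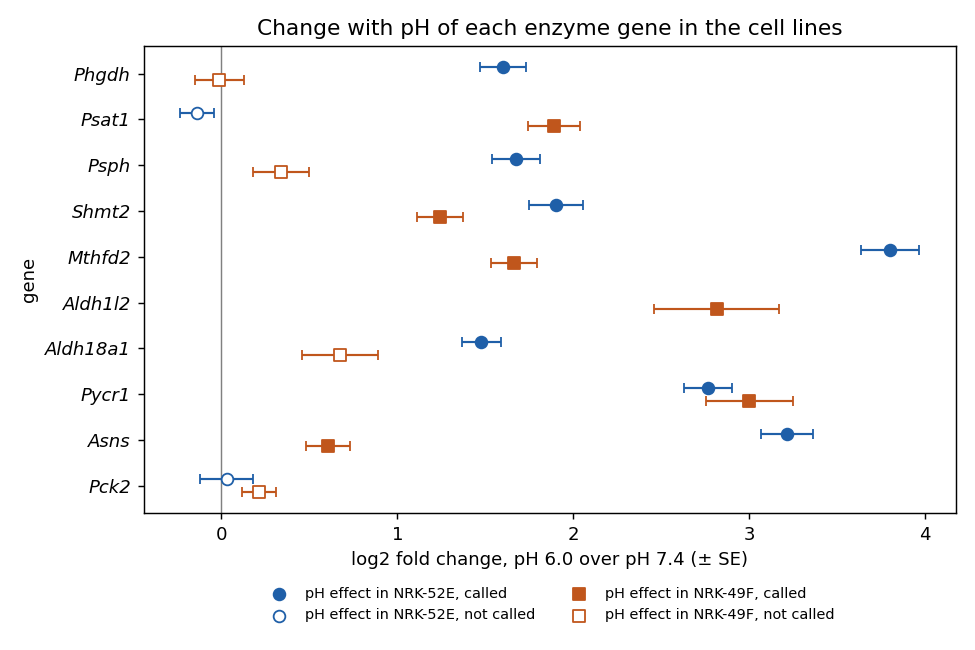
Log2 fold change of pH 6.0 against pH 7.4 (axis of values) for each gene in NRK-52E and in NRK-49F, with bars for ± 1 SE; filled symbols mark calls and open symbols the rest, and Aldh1l2 in NRK-52E was not tested. Pycr1 was near 3 in both lines, and Psat1 was near 0 in NRK-52E and 1.89 in NRK-49F.

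Serine synthesis begins with Phgdh (ENSRNOG00000019328, chromosome 2), which oxidises phosphoglycerate. In NRK-52E its level was 84.2, 66.8, 56.4 and 68.5 FPM at pH 7.4 and 247, 203, 201 and 179 FPM at pH 6.0. All acid libraries exceeded all those at pH 7.4, and within pH 6.0 the highest was N3 and the lowest N8. The group means were 69.0 ± 11.46 and 208 ± 28.5 FPM (SD, n = 4), with a log2 fold change of 1.60 (SE 0.13, adjusted p 2.08e-06). In NRK-49F the level was 35.9, 31.7, 45.7 and 42.3 FPM at pH 7.4 and 42.6, 40.6, 40.4 and 30.9 FPM at pH 6.0. These ranges overlapped along most of their length, and the means of 38.9 ± 6.29 and 38.6 ± 5.25 FPM gave −0.01 (SE 0.14, adjusted p 0.952), with an exact permutation p of 1. The sign of this near-zero value turned with the settings, to 0.04 with library totals in place of TMM, and it was 0.32 within number 20 and −0.31 within number 21. The pH effect on Phgdh was 1.60 log2 units larger in NRK-52E than in NRK-49F (SE 0.20, adjusted p 4.34e-06).

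Psat1 (ENSRNOG00000013971, chromosome 1) is the aminotransferase that adds nitrogen from glutamate, and its pH effect was called in NRK-49F and not in NRK-52E. In NRK-52E it had 67.7, 61.1, 61.2 and 62.4 FPM at pH 7.4 and 54.8, 65.6, 57.6 and 49.8 FPM at pH 6.0. N4 at pH 6.0 lay inside the range of pH 7.4 and the other 3 libraries lay below it. This gave a log2 fold change of −0.14 (SE 0.10, adjusted p 0.223), from means of 63.1 ± 3.10 and 56.9 ± 6.59 FPM, with an exact permutation p of 0.143. In NRK-49F, Psat1 had 9.70, 7.92, 11.1 and 13.45 FPM at pH 7.4 and 41.9, 38.2, 37.0 and 39.5 FPM at pH 6.0. Here all 4 libraries at pH 6.0 were far above the highest library at pH 7.4, and they lay close to each other. The means were 10.53 ± 2.33 and 39.2 ± 2.09 FPM and the log2 fold change was 1.89 (SE 0.15, adjusted p 1.29e-06), with 2.21 within number 20 and 1.63 within number 21. Psat1 was the gene of the 10 with a called negative interaction, −2.04 (SE 0.18, adjusted p 9.05e-08). At pH 6.0 the NRK-49F libraries were closer to those of NRK-52E but all still below them.

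Psph (ENSRNOG00000000925, chromosome 12) removes the phosphate in the last step to serine. Its level in NRK-52E was 24.3, 21.9, 16.7 and 22.5 FPM at pH 7.4 and 80.1, 63.6, 60.8 and 65.3 FPM at pH 6.0. The groups stood well apart, and N3 was again the highest library at pH 6.0. From means of 21.3 ± 3.27 and 67.4 ± 8.67 FPM, the log2 fold change was 1.67 (SE 0.14, adjusted p 1.98e-06). In NRK-49F the level was 13.9, 10.8, 16.2 and 14.7 FPM at pH 7.4 and 19.9, 19.7, 16.3 and 14.51 FPM at pH 6.0. Both acid libraries of number 20 lay well above all those at pH 7.4, N15 lay just above the highest of them, and N16 lay among them. Over the 8 libraries the log2 fold change was 0.34 (SE 0.16, adjusted p 0.0930), with an exact permutation p of 0.114. Within number 20 it was 0.70 (adjusted p 0.00295 in edgeR) and within number 21 −0.01 (adjusted p 0.985). Its interaction was 1.32 (SE 0.21, adjusted p 5.41e-05). At pH 6.0 the first and last enzymes of serine synthesis were thus called in NRK-52E and the middle enzyme in NRK-49F.

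Among the mitochondrial folate enzymes, Shmt2 (ENSRNOG00000008106, chromosome 7) splits serine into glycine and a folate-bound carbon unit. NRK-52E had 82.0, 75.4, 63.0 and 68.5 FPM at pH 7.4 and 333, 294, 254 and 193 FPM at pH 6.0. NRK-49F had 47.5, 43.8, 52.8 and 56.0 FPM at pH 7.4 and 139, 126, 117 and 91.9 FPM at pH 6.0. In both lines the acid libraries lay above all the others, but they were also more spread, with N8 and N16 the lowest of their groups. In NRK-52E the log2 fold change was 1.90 (SE 0.15, adjusted p 1.83e-06), from means of 72.2 ± 8.26 and 268 ± 59.4 FPM. For NRK-49F it was 1.24 (SE 0.13, adjusted p 1.20e-05), from 50.02 ± 5.47 and 118 ± 19.9 FPM. The difference between these effects, 0.65 (SE 0.21, adjusted p 0.0163), missed the threshold, and it was called without N11 (0.74, adjusted p 0.00982) or without N8 (0.78, adjusted p 0.00163).

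Mthfd2 (ENSRNOG00000010833, chromosome 4), the dehydrogenase and cyclohydrolase that oxidises this carbon unit, had the largest fold change of the 9 genes tested in NRK-52E. There it had 16.7, 16.9, 14.2 and 14.4 FPM at pH 7.4 and 278, 214, 210.0 and 159 FPM at pH 6.0. The libraries at pH 7.4 were nearly equal, and the lowest at pH 6.0, N8, was many times higher than any of them. Means of 15.54 ± 1.42 and 215 ± 48.8 FPM gave a log2 fold change of 3.80 (SE 0.16, adjusted p 6.13e-08), a ratio of means of 13.8. NRK-49F had 19.6, 20.3, 21.05 and 22.2 FPM at pH 7.4 and 81.7, 67.5, 59.7 and 55.1 FPM at pH 6.0. The groups lay apart here as well, with N11 highest. For NRK-49F the log2 fold change was 1.66 (SE 0.13, adjusted p 1.24e-06), from means of 20.8 ± 1.14 and 66.0 ± 11.7 FPM, and the interaction was 2.13 (SE 0.21, adjusted p 2.54e-07).

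Aldh1l2 (ENSRNOG00000008586, chromosome 7), which oxidises formyl-tetrahydrofolate to carbon dioxide and yields NADPH, was near the limit of detection in NRK-52E. No fragment was counted there in the 4 libraries at pH 7.4, and 3, 7, 4 and 12 fragments were counted at pH 6.0. The level at pH 6.0, pooled over the group, was at least 9.14-fold higher than at pH 7.4, against the floor there, and the gene did not pass the filter for the test in this line. In NRK-49F it had 0.577, 0.358, 0.927 and 1.11 FPM at pH 7.4, from 59 fragments in all, and 7.522, 5.57, 4.87 and 3.43 FPM at pH 6.0. The acid libraries lay above the others in that line, and they spanned a wide range, with N11 highest and N16 lowest. Means of 0.744 ± 0.340 and 5.35 ± 1.70 FPM gave 2.82 (SE 0.36, adjusted p 4.53e-05), with 3.83 within number 20 and 2.001 within number 21. The gene passed the filter in NRK-49F only with the help of its pH 6.0 libraries, which limits this call. The interaction, fitted against a group without counts, was not called (adjusted p 0.0680).

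Proline synthesis begins with Aldh18a1 (ENSRNOG00000060047, chromosome 1), which reduces glutamate to the semialdehyde. In NRK-52E it had 40.7, 39.5, 37.8 and 35.6 FPM at pH 7.4 and 124, 113, 102 and 86.8 FPM at pH 6.0. The acid libraries were all higher, with N3 at the top and N8 at the bottom, as for Phgdh, Shmt2 and Mthfd2. Its log2 fold change was 1.48 (SE 0.11, adjusted p 1.14e-06), from means of 38.4 ± 2.21 and 106 ± 15.7 FPM. In NRK-49F it had 52.2, 49.6, 47.7 and 64.4 FPM at pH 7.4 and 127, 93.5, 63.7 and 57.1 FPM at pH 6.0. N14 at pH 7.4 exceeded both N15 and N16 at pH 6.0, so the groups overlapped, while N11 stood highest of the 8. The log2 fold change of 0.67 (SE 0.22, adjusted p 0.0201) was not called, with an exact permutation p of 0.0857, although DESeq2 alone gave an adjusted p of 0.00515. It was called without N16 (0.83, adjusted p 0.00443), with all 16 libraries in a single fit (0.67, adjusted p 0.00696) and with no filter on low counts (0.68, adjusted p 0.00462). Within number 20 the value was 1.13 (adjusted p 2.83e-05) and within number 21 0.10 (adjusted p 0.719). The interaction of 0.80 (SE 0.27, adjusted p 0.0185) was called without N11 (1.05, adjusted p 7.20e-04) or without N8 (0.88, adjusted p 0.00973).

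Pycr1 (ENSRNOG00000036682, chromosome 10) carries out the last reduction to proline in mitochondria. NRK-52E had 8.20, 8.10, 7.39 and 8.66 FPM at pH 7.4 and 43.2, 62.2, 54.8 and 57.9 FPM at pH 6.0. NRK-49F had 15.1, 10.9, 11.1 and 19.2 FPM at pH 7.4 and 161, 114, 107 and 70.5 FPM at pH 6.0. The acid libraries of both lines were several times higher than any other library of the line. In NRK-52E the lowest of them was N3, the library that was highest for Phgdh and Mthfd2, and in NRK-49F the highest was N11 and the lowest N16. The effect in NRK-52E was 2.76 (SE 0.14, adjusted p 1.03e-07) as a log2 fold change, from means of 8.09 ± 0.525 and 54.5 ± 8.13 FPM. That in NRK-49F was 3.001 (SE 0.25, adjusted p 1.72e-06), from 14.1 ± 3.95 and 113 ± 37.3 FPM. The interaction, −0.25 (SE 0.30, adjusted p 0.518), was not called.

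Asns (ENSRNOG00000007546, chromosome 4), the asparagine synthetase, stood in the opposite order in the lines at each pH. In NRK-52E it had 12.48, 9.01, 8.14 and 8.42 FPM at pH 7.4 and 86.8, 99.5, 86.9 and 77.6 FPM at pH 6.0. In NRK-49F it had 29.5, 32.0, 40.6 and 38.8 FPM at pH 7.4 and 59.3, 56.1, 50.1 and 49.5 FPM at pH 6.0. The ranges at each pH lay apart in both lines, by a wide gap in NRK-52E and by a narrower one in NRK-49F. Asns had a log2 fold change of 3.22 (SE 0.15, adjusted p 6.97e-08) in NRK-52E, from means of 9.51 ± 2.01 and 87.7 ± 8.998 FPM. The value in NRK-49F was 0.61 (SE 0.12, adjusted p 0.00145), from 35.2 ± 5.34 and 53.8 ± 4.75 FPM. Within number 20 the value in NRK-49F was 0.92 (adjusted p 2.66e-05) and within number 21 it was 0.32 (adjusted p 0.189), which was not called. The interaction of 2.60 (SE 0.20, adjusted p 1.48e-08) was the largest of those called among the 10 genes.

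Pck2 (ENSRNOG00000018536, chromosome 15), the mitochondrial phosphoenolpyruvate carboxykinase, was not called for pH in either line. NRK-52E had 53.7, 56.1, 47.9 and 51.4 FPM at pH 7.4 and 44.5, 50.8, 45.3 and 70.7 FPM at pH 6.0. At pH 6.0, N8 lay above every library of pH 7.4, N4 lay inside their range, and N3 and N7 lay below it. The log2 fold change was 0.03 (SE 0.15, adjusted p 0.873), with an exact permutation p of 0.971, and without N8 it was −0.15. NRK-49F had 71.3, 67.3, 71.8 and 80.2 FPM at pH 7.4 and 90.4, 88.7, 85.0 and 73.3 FPM at pH 6.0. N16 lay inside the range of pH 7.4 and the other acid libraries lay above it. Its log2 fold change there was 0.22 (SE 0.10, adjusted p 0.0798), with an exact permutation p of 0.0571. Within number 20 it was 0.39 (adjusted p 0.00288) and within number 21 0.05 (adjusted p 0.836). The interaction was −0.20 (SE 0.18, adjusted p 0.368).

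The acid libraries of each line differed among themselves. The summed level of the 10 genes was 389.8, 355, 313 and 340.4 FPM at pH 7.4 and 1291, 1165, 1072 and 939.7 FPM at pH 6.0 in NRK-52E. The NRK-49F sums were 295, 275, 319 and 352 FPM at pH 7.4 and 770.5, 649, 580.5 and 486 FPM at pH 6.0. N3 had the highest sum and N8 the lowest in the acid NRK-52E libraries, yet N8 was the highest of them for Pck2 and Aldh1l2. In the acid NRK-49F libraries N11 had the highest sum and N16 the lowest, and N11 was also the highest for each of the 10 genes. N16 had the deepest sequencing of the 16 libraries and N12 the shallowest, while N12 had the second highest sum of its group.

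The within-number values carried the same difference in NRK-49F. Within number 20, with 2 libraries against 2, 9 of the 10 genes were called higher, all but Phgdh, and within number 21, 5 were. The median log2 fold change of the 10 was 1.34 within number 20 and 0.63 within number 21, against 0.00 over all genes in both. Over all genes, 4680 of 13379 were called within number 20, 49.7% of these higher, and 1980 of 13861 within number 21, 50.5% of these higher, against 5039 of 13339 from the 8 libraries. The 5 genes called within both numbers were Psat1, Shmt2, Mthfd2, Aldh1l2 and Pycr1, where Aldh1l2 has the limit on its filter given above. Shmt2 had 1.55 and 0.93, Mthfd2 1.92 and 1.40, and Pycr1 3.43 and 2.53, within numbers 20 and 21. In NRK-52E, 7 genes were called within number 21 and 7 within number 22, all higher, where 5244 of 13903 and 2820 of 13952 genes were called, 47.4% and 50.8% of these higher, against 7793 of 13735 from the 8 libraries. Mthfd2 had 3.86 and 3.70 there, and Asns 3.11 and 3.32. What the number marks is not stated, and its part in these differences was not tested.

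Number 21 is carried by 2 libraries of each of the 4 groups, and the sources used here do not say which libraries of the lines shared wells, so all 16 were taken as independent. In fits chosen after seeing the data, the 5 called interactions stayed called within number 21 and with the number as covariate. Within number 21, Phgdh had 1.87, Psph 1.64, Mthfd2 2.47, Asns 2.79 and Psat1 −1.74. Shmt2 and Aldh18a1 were called as well, with 1.05 and 1.45 within number 21 and 0.64 and 0.85 with the covariate. That made 7 of the 10 within number 21, with a median of 1.54 against −0.08 over all genes, of which 2522 of 14890 were called. The interactions of Shmt1 (−0.95), Mthfd1 (−0.43) and Pycr3 (0.59) were not called within number 21.

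Of the 10 genes, 8 were called different between the lines at pH 7.4 and 9 at pH 6.0. Both counts include Aldh1l2, which passed the filter on low counts in NRK-49F and not in NRK-52E. At pH 7.4, 4 were called higher in NRK-52E, against 27.9% of 14679 genes, and 4 lower, against 31.9%, with a median log2 difference of −0.45 (NRK-52E minus NRK-49F) against −0.05 over all genes. At pH 6.0, 6 were called higher, against 30.7%, and 3 lower, against 32.5%, with a median of 0.62 against −0.02. Over the 9 genes without Aldh1l2, the medians were −0.42 at pH 7.4 and 0.71 at pH 6.0. With library totals the medians of the 10 were −0.06 against 0.34 at pH 7.4 and 0.77 against 0.13 at pH 6.0. The 3 enzymes of serine synthesis were called higher in NRK-52E at both pH values. Psat1 differed by 2.58 (SE 0.14, adjusted p 4.28e-12) at pH 7.4 and by 0.54 (SE 0.13, adjusted p 7.93e-04) at pH 6.0, and Phgdh by 0.83 and 2.43. Psph differed by 0.62 and 1.94. The comparisons of line use the same libraries as those of pH.

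Asns changed places between the lines. It was called lower in NRK-52E at pH 7.4, with a difference of −1.89 (SE 0.14, adjusted p 9.72e-10), and higher there at pH 6.0, with 0.71 (SE 0.13, adjusted p 1.09e-04). Mthfd2 had a difference of −0.42 (SE 0.15, adjusted p 0.0178) at pH 7.4, which was not called although the ranges lay apart, and of 1.71 (SE 0.15, adjusted p 4.18e-09) at pH 6.0. Shmt2 differed by 0.53 (adjusted p 0.00455) and 1.18, and the call at pH 7.4 was lost without N1, N2, N9 or N10.

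Aldh1l2, Pycr1 and Pck2 were the 3 genes called lower in NRK-52E at both pH values. Aldh1l2 entered these fits through NRK-49F, as it did not pass the filter on low counts in NRK-52E, so only its levels are given. It was at least 22.99-fold higher in NRK-49F than in NRK-52E at pH 7.4, against the floor of the group without counts. At pH 6.0 its mean level was 0.302 FPM in NRK-52E, from 26 fragments, and 5.35 FPM in NRK-49F, and the ranges lay apart. Pycr1 differed by −0.81 (SE 0.22, adjusted p 0.00309) at pH 7.4 and −1.05 (SE 0.20, adjusted p 1.32e-04) at pH 6.0, and Pck2 by −0.47 (SE 0.13, adjusted p 0.00271) and −0.68 (SE 0.13, adjusted p 1.01e-04). The calls at pH 7.4 depended on the scaling, since with library totals Pycr1 had −0.42 and Pck2 −0.09, neither called. They also depended on single libraries. That of Pycr1 was lost without N1, N2, N3, N5, N9 or N14, and that of Pck2 in 12 of 16 fits that each left out a library, all but those without N7, N8, N11 or N16. Without N1, N2 or N9, 5 of the 10 genes were called at pH 7.4 in place of 8. Over all genes, 8514 of 14907, 8069 of 14895 and 8459 of 14955 were called in these fits, against 8780 of 14679 from all libraries. Within number 21, 4 of the 10 were called, and 6106 of 14890 over all genes. There Psph (0.58), Shmt2 (0.53), Pycr1 (−0.91) and Pck2 (−0.47) were not called, and with the number as covariate Pycr1 (−0.72) and Pck2 (−0.50) were not, while the median of the 10 was −0.20. At pH 6.0, Pycr1 was not called (−0.75) and Aldh18a1 was (0.96) within number 21. Aldh18a1 had −0.48 (SE 0.19, adjusted p 0.0312) at pH 7.4 and 0.32 (SE 0.19, adjusted p 0.133) at pH 6.0, and without N11 the latter was 0.57 (adjusted p 0.00367) and called.

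Ordered by mean level, Shmt2, Mthfd2 and Asns were highest in NRK-52E at pH 6.0 and next in NRK-49F at pH 6.0, and for each of them all 4 groups lay apart. Pycr1 also had 4 separate groups, with NRK-49F at pH 6.0 highest and NRK-52E at pH 7.4 lowest. For Phgdh, NRK-52E at pH 6.0 was highest, then NRK-52E at pH 7.4, and the NRK-49F groups came last and overlapped. Psph had the same highest group, followed by NRK-52E at pH 7.4, NRK-49F at pH 6.0 and NRK-49F at pH 7.4, each of which overlapped the next. For Psat1 the overlapping NRK-52E groups came first, then NRK-49F at pH 6.0 and, apart from it, NRK-49F at pH 7.4. Aldh1l2 ran from NRK-49F at pH 6.0 down to NRK-52E at pH 7.4, with overlap between NRK-49F at pH 7.4 and NRK-52E at pH 6.0. For Aldh18a1 NRK-52E at pH 7.4 lay apart at the bottom, with overlap between each pair of neighbours above it. For Pck2, every pair of neighbours overlapped.

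Several of these enzymes have a partner isozyme, in most cases in another compartment. In NRK-52E 1 of the 6 partners tested was called (2 with all 16 libraries in one fit or with no filter on low counts), and in NRK-49F 5 were called higher and 1 lower, with median log2 fold changes of 0.07 and 0.56. Of all genes tested, 28.2% were called higher and 28.5% lower in NRK-52E, and 18.4% and 19.4% in NRK-49F. Their medians were 0.001 and −0.003. Shmt1, the cytosolic partner of Shmt2, had 43.5, 43.9, 40.8 and 41.4 FPM at pH 7.4 and 35.9, 41.7, 40.5 and 50.8 FPM at pH 6.0 in NRK-52E, with means of 15.2 ± 2.101 and 24.2 ± 1.31 FPM in NRK-49F. The acid range of NRK-52E enclosed the other one, while in NRK-49F the acid libraries were all higher. Shmt1 had a log2 fold change of 0.01 (SE 0.12, adjusted p 0.968) in NRK-52E and 0.67 (SE 0.12, adjusted p 5.65e-04) in NRK-49F, and the interaction was −0.67 (SE 0.17, adjusted p 0.00248).

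For Mthfd2, the partners are cytosolic Mthfd1 and mitochondrial Mthfd2l, and mitochondrial Mthfd1l takes the carbon unit on to formate. Mthfd1l had 28.2, 28.1, 28.6 and 27.6 FPM at pH 7.4 and 80.5, 70.7, 66.0 and 48.7 FPM at pH 6.0 in NRK-52E, groups that lay apart with N8 the lowest of the acid libraries. It was called higher in NRK-52E, with 1.25 (SE 0.14, adjusted p 1.47e-05), and in NRK-49F, with 0.64 (SE 0.10, adjusted p 1.82e-04). Its interaction of 0.60 (SE 0.17, adjusted p 0.00679) was lost in 12 of 16 fits that each left out a library (0.39 to 0.72, kept without N8, N11, N12 or N13), and with library totals (0.36). Mthfd1 had 0.07 (adjusted p 0.494) in NRK-52E and 0.48 (SE 0.09, adjusted p 9.02e-04) in NRK-49F. Its interaction, −0.42 (SE 0.12, adjusted p 0.00828), was also lost in 12 of 16 such fits (−0.51 to −0.38, kept without N3, N4, N11 or N14) and, at −0.40, with no filter on low counts. Mthfd2l had −0.13 (adjusted p 0.595) in NRK-52E and 0.73 (SE 0.20, adjusted p 0.00898) in NRK-49F, a call lost within numbers 20 and 21, at 0.83 and 0.67, and in 6 of 8 fits that each left out a library, all but those without N12 or N13. Those 8 fits gave values from 0.61 to 0.85.

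Pycr3 catalyses the same reduction as Pycr1, in the cytosol. It had 68.2, 66.1, 77.0 and 82.3 FPM at pH 7.4 and 48.7, 45.9, 52.01 and 46.0 FPM at pH 6.0 in NRK-49F, where all acid libraries were lower. Its log2 fold change was −0.61 (SE 0.10, adjusted p 2.45e-04) in NRK-49F and 0.08 (adjusted p 0.609) in NRK-52E. The interaction was 0.67 (SE 0.16, adjusted p 0.00217), and it was not called without N3 or, at 0.43, with library totals.

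Pck1, the cytosolic partner of Pck2, had 0 counts in all 16 libraries, so its level lay below the floors of the 4 groups. Aldh1l1, the cytosolic partner of Aldh1l2, had 4, 38, 32 and 45 counts in the 4 groups and was not tested for pH. Within number 21, with 2 libraries against 2, the log2 fold changes of Shmt1, Mthfd1, Mthfd1l, Mthfd2l and Pycr3 in NRK-49F were 0.77, 0.49, 0.50, 0.67 and −0.71, near those from all 8 libraries, but none was called (adjusted p 0.0113 or more). Of all genes, 1980 of 13861 were called in that fit. Aldh4a1 and Gapdh of the lists that follow were not analysed here.

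Other genes around these pathways were called in both directions, and their log2 fold changes are given with SE. For comparison with each list, 28.2% of all genes were called higher and 28.5% lower in NRK-52E, and 18.4% and 19.4% in NRK-49F. Of 12 other folate genes tested in each line, 6 were called higher and 4 lower in NRK-52E, and 4 higher and 2 lower in NRK-49F, with median log2 fold changes of 0.12 and 0.28. Among the folate carriers, plasma membrane Slc46a1 was lower in NRK-52E (−2.13, SE 0.11) and NRK-49F (−1.62, SE 0.18), mitochondrial Slc25a32 was higher in both (1.27, SE 0.09, and 0.81, SE 0.10, in that order), and Slc19a1 was called only in NRK-49F (1.24, SE 0.14). Fpgs, which adds glutamates to folate, was higher in NRK-52E, by 1.30 (SE 0.12). Mthfs, which recovers formyl-tetrahydrofolate, was lower in NRK-52E (−1.41, SE 0.12) and in NRK-49F (−1.11, SE 0.23).

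For the use of serine and glycine, 6 of 8 genes tested were called higher in NRK-52E and 3 of 10 in NRK-49F (5 with library totals or DESeq2 alone, 8 at FDR below 0.05), with median log2 fold changes of 0.61 and 0.34. Sptlc2, which condenses serine into the sphingoid base, had 1.32 (SE 0.09) in NRK-52E, and Ptdss1, which makes phosphatidylserine, 0.49 (SE 0.10) in NRK-49F and 0.42 (SE 0.08) in NRK-52E, where the call was lost without N6 and, at 0.21, with library totals. Amt, a part of the glycine cleavage system, was higher in NRK-52E, by 0.81 (SE 0.13), and in NRK-49F, by 1.03 (SE 0.16).

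Of 6 genes of proline breakdown and glutamate supply, 3 were called higher and 3 lower in NRK-52E, and 1 higher and 3 lower in NRK-49F, with medians of 0.31 and −1.11. Glul, which makes glutamine from glutamate, was lower in NRK-52E (−2.37, SE 0.12) and NRK-49F (−1.68, SE 0.12). The glutamate dehydrogenase Glud1 was lower too, with −0.40 (SE 0.07) in NRK-52E and −1.60 (SE 0.11) in NRK-49F, and Oat, which links ornithine to the proline precursor, was higher in NRK-52E by 1.08 (SE 0.10).

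Among 7 genes for asparagine, aspartate and alanine, 3 were called higher and 3 lower in NRK-52E, and 4 higher and 1 lower in NRK-49F, with medians of −0.36 and 0.32. Without N10, N12 or N15, 3 were called in NRK-49F. The asparaginyl-tRNA synthetase Nars1 (1.56, SE 0.12) and the aspartate aminotransferase Got1 (1.03, SE 0.08) were higher in NRK-52E, with smaller called values of 0.43 (SE 0.08) and 0.32 (SE 0.08) in NRK-49F, the latter lost in 6 of 8 fits that each left out a library (0.31 to 0.35, kept without N13 or N16). The asparaginase Asrgl1 was lower in NRK-52E (−1.05, SE 0.23). The alanine aminotransferase Gpt was lower in NRK-52E (−1.06, SE 0.18) and NRK-49F (−0.98, SE 0.19), while mitochondrial Gpt2 was higher in NRK-52E (0.87, SE 0.19; not called with library totals, at 0.66) and in NRK-49F (1.42, SE 0.20). Nars2 was higher in NRK-49F (0.56, SE 0.13), a call lost without N10, N12 or N15. Of 5 genes of glycolysis below the triose phosphates and of phosphoenolpyruvate supply, 3 were called higher in NRK-52E (5 at FDR below 0.05) and 1 in NRK-49F (2 at that threshold, with DESeq2 alone or with the label number as covariate), with medians of 0.43 and 0.09. Pc, which makes the oxaloacetate that Pck2 uses, had 1.95 (SE 0.14) in NRK-52E, Pkm had 0.50 (SE 0.09) there, and Pgam1 had 0.55 (SE 0.10) in NRK-49F and 0.43 (SE 0.10) in NRK-52E, where the call was lost without N2, N5 or N6, within number 21 or 22, and, at 0.22, with library totals.

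Within one number, with 2 libraries against 2, more of these calls were lost. In NRK-49F within number 21 they were those of Mthfs (−0.64), Ptdss1 (0.41), Nars1 (0.34), Got1 (0.26), Gpt (−1.003) and Pgam1 (0.56), and within numbers 20 and 21 that of Nars2 (0.62 and 0.52). In NRK-52E within numbers 21 and 22 they were those of Amt (0.77 and 0.83), Ptdss1 (0.37 and 0.46), Glud1 (−0.40 and −0.43), Asrgl1 (−1.04 and −1.09) and Pkm (0.41 and 0.58), and within number 22 those of Gpt (−0.94) and Gpt2 (0.68). Over whole lists, the isozyme partners called within number 21 of NRK-49F were 0, the other folate genes 3, the genes for asparagine, aspartate and alanine 1, and those of glycolysis and phosphoenolpyruvate supply 0. Calls fell over all genes as well, to 1980 of 13861 there, against 5039 of 13339 from the 8 libraries. Within numbers 21 and 22 of NRK-52E, 3 and 2 genes of serine and glycine use were called, and 1 and 1 of glycolysis and phosphoenolpyruvate supply, and within number 22, 4 other folate genes, 3 of proline breakdown and glutamate supply and 2 for asparagine, aspartate and alanine. Over all genes, 5244 of 13903 and 2820 of 13952 were called within these numbers, against 7793 of 13735 without the split.

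In NRK-52E, Atf4 itself (ENSRNOG00000017801, chromosome 7) had 289, 239, 220.1 and 241 FPM at pH 7.4 and 1189.8, 796, 799.6 and 784 FPM at pH 6.0. N3 stood far above the other 3 acid libraries, and all 4 lay above those of pH 7.4. In NRK-49F it had 212, 216, 254 and 230.3 FPM at pH 7.4 and 308, 307, 272 and 209 FPM at pH 6.0, with N16 below every library of pH 7.4. The log2 fold change was 1.86 (SE 0.15, adjusted p 1.82e-06) in NRK-52E and 0.26 (SE 0.13, adjusted p 0.105) in NRK-49F, where it was called without N16 (0.38, adjusted p 0.00918) and was 0.54 within number 20 and −0.02 within number 21. The interaction was 1.59 (SE 0.21, adjusted p 6.25e-06). These are transcript levels, and the ATF4 protein was not analysed here.

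Of 20 genes made up of Atf4 and ATF4-linked genes with other tasks, 16 were called higher in NRK-52E, against 28.2% of all genes, with a median log2 fold change of 2.20, and 7 in NRK-49F, against 18.4%, with a median of 0.26. Within number 21 of NRK-49F, 3 were called, where 1980 of 13861 genes were. The interaction was called positive for 15 of the 20, against 19.3%. The pseudokinase gene Trib3 had 4.81 (SE 0.23, adjusted p 7.73e-08) in NRK-52E and 1.75 (SE 0.31, adjusted p 5.12e-04) in NRK-49F, where it was not called within number 21 (0.99), and Atf3 4.66 (SE 0.37, adjusted p 1.61e-06) and 2.79 (SE 0.27, adjusted p 5.37e-06). Set beside these, the 10 enzymes had a median of 1.67 over 9 genes in NRK-52E and of 0.96 over 10 in NRK-49F, or 0.67 there without Aldh1l2. Their median interaction was 1.06, or 0.73 with Aldh1l2 at the bound its floor gives and 0.80 over the 9 genes without it, against −0.01 over all genes. With library totals in place of TMM, the median interaction of all genes moved to −0.25 and the share of called genes with a positive interaction went from 52.4% to 37.8%. Without N3 they were −0.12 and 43.3%. In both fits the 5 called interactions of the 10 enzymes kept their direction.

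The genes with the pattern most like the median of the 9 enzymes tested in all comparisons were Cops4, Rrn3, Gpr107, Me1 and Kdelr2. The pattern was the pH effect in each line and the line difference at pH 7.4, the distance was Euclidean in log2 units, and 9414 named genes with at least 10 FPM in a group were compared. Their distances were 0.06, 0.07, 0.12, 0.13 and 0.14. The 3 values share libraries. Single enzymes had other nearest genes, Hmgcs1 for Phgdh (0.23), Phip for Psat1 (0.41), Mterf3 for Psph (0.14), Tial1 for Shmt2 (0.13), Ciart for Mthfd2 (0.41), Prdx3 for Aldh18a1 (0.08), Phospho1 for Pycr1 (0.69), Aen for Asns (0.42) and Crat for Pck2 (0.04).

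The promoters of 8 of the 10 genes were in the RefSeq table for the rat build GRCr8, with 250 bases before and 50 after the gene start; Aldh1l2 and Aldh18a1 were not in it. The motif TGATGNAA, the core of the element that dimers of C/EBP and ATF proteins bind, was searched on both strands. It was found in 2 of the 8, Pycr1 and Pck2, and in 3.98% of all 33469 promoters. In the part before the gene start the shares were 2 of 8 and 3.40%. The match lies 131 bases before the start of Pycr1 and, on the strand opposite to the gene, 239 bases before that of Pck2. The stretches of 100 bases that hold it are shown because Pycr1 was called higher in both lines and Pck2 in neither. They are written 5′ to 3′ along the gene, with the match in capitals, from chr10:106420890-106420989 on the minus strand for Pycr1 and chr15:32997603-32997702 on the plus strand for Pck2.
Pycr1: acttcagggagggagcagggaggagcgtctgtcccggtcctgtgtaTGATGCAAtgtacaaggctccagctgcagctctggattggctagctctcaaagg
Pck2: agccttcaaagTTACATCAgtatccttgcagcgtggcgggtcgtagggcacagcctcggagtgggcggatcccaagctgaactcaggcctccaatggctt

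The motif TGACNNNGC, the core of the antioxidant response element, was found on either strand in 1 of the 8 promoters, that of Phgdh, where it begins 21 bases after the start, and in 12.1% of all promoters. Before the gene start it was found in 10.1% of all promoters and in no promoter of the 8. A missing match says only that these letters are not in this window, and a match is a description of the sequence.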

How the data were processed

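The 10 genes and the gene lists were chosen with earlier results of these data known. The authors' raw counts (featureCounts 2.0, rn6, Ensembl annotation, multi-mapping fragments counted at each place) were used for all 16 libraries. The study's methods name tophat2 v2.0.14 for mapping, and the labels name HISAT2 2.1.0; strand use is not stated. Each pH effect was fitted over all genes in the 8 libraries of a line, and the interaction and line differences in all 16, with edgeR 4.0.16 (quasi-likelihood, TMM, filterByExpr) and DESeq2 1.42.0 (Wald) in R 4.3.3, with Benjamini-Hochberg adjustment over all genes tested. From each gene list outside the isozymes and cell type markers, the named genes are those called with the 2 largest rises and falls per line among genes with at least 10 FPM in a group; Atf4 was always named. Markers are also named for what they define. A few genes counted in the lists are not reported here by themselves. Alternatives were other scaling, filters and thresholds, each tool alone, the label number as covariate or within number (for both lines together, chosen after seeing the data), and each library left out. Other scaling, such as library totals, and no filter on low counts changed the edgeR fit only, and calls joined it to the unchanged DESeq2 fit.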

Additional observations from a re-analysis of the deposited data

Results flagged for a closer look

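In 67 groups of 4 values, covering the 10 enzymes, partner isozymes and Atf4, the highest or lowest library was tested for its gap to the others with Dixon's test, which by chance marks 1 in 20 groups, or 3.35 here. It marked 2. Mthfd2l in NRK-52E at pH 6.0 was 2.68 FPM in N4, against 3.33 to 3.43 in the other 3 libraries. Atf4 in NRK-52E at pH 6.0 was 1189.85 FPM in N3, against 784 to 799.6 in the others.

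The pH effect differed between the lines, by the interaction contrast, for 10 of the 17 genes reported here and tested for it, against 19.3% of all 14679 genes with a positive and 17.5% with a negative call. The log2 fold change, with its sign, was higher in NRK-52E for Phgdh (1.60, adjusted p 4.34e-06 in edgeR), Psph (1.32, 5.41e-05), Mthfd2 (2.13, 2.54e-07) and Asns (2.60, 1.48e-08). The same held for Mthfd1l (0.60, 0.00679), Pycr3 (0.67, 0.00217) and Atf4 (1.59, 6.25e-06). For Pycr3 this came with a called fall in NRK-49F (−0.61), while its pH effect was not called in NRK-52E. The interaction was negative for Psat1 (−2.04, 9.05e-08), Shmt1 (−0.67, 0.00248) and Mthfd1 (−0.42, 0.00828). The calls of Mthfd1l and Mthfd1 were lost in 12 of 16 fits that each left out a library, those of Mthfd1l and Pycr3 with library totals, and those of Shmt1, Mthfd1 and Pycr3 within number 21. The cause of these differences was not tested.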

How the results depend on the processing

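For the 10 enzymes, 598 of 632 values kept their direction and their side of the threshold when each library was left out in turn, and 445 of 479 did so under the other settings. The number of them called was 7 in every fit that left out a library in NRK-52E, 6 to 7 in NRK-49F, 5 to 7 for the interaction and 9 to 10 for the line difference at pH 6.0. Over all genes it ran from 6789 to 8914, 4125 to 4992, 4649 to 5952 and 8765 to 9675 in that order. For the line difference at pH 7.4 the number of the 10 called was 8 and ran from 5 to 8, with 5 without N9, N1 or N2. Over all genes, 8459 of 14955, 8514 of 14907 and 8069 of 14895 were called in those 3 fits. Within number 21, 4 of the 10 and 6106 of 14890 of all genes were called. That fit was chosen after seeing the data, as were all fits of the number over both lines. The signs that turned belonged to uncalled values. Phgdh in NRK-49F became 0.00285 with at least 1 CPM in 4 libraries, 0.0358 with library totals, 0.00205 with no filter on low counts and 0.318 within number 20, and ran from −0.0956 to 0.0882 with a library left out. Pck2 in NRK-52E became −0.18 with library totals, −0.00523 with no filter and −0.219 within number 21, and ran from −0.152 to 0.106. The interaction of Pycr1 became 0.154 within number 21. Within number 21 of NRK-49F, Psph became −0.00756 and Atf4 −0.0157. In NRK-52E, Shmt1 became −0.00717 in a fit of all 16 libraries, −0.202 with library totals, −0.0267 with no filter and −0.185 within number 21, and ran from −0.102 to 0.0763. Pycr3 became −0.133 with library totals and −0.125 within number 21, and ran from −0.0357 to 0.146, and Mthfd1 became −0.139 with library totals. Mthfd2l became 0.139 within number 22. With library totals the line difference at pH 7.4 became 0.00861 for Cops4 and 0.00922 for Gpr107, as the median of all genes moved from −0.05 to 0.34, and the share of called genes that were positive went from 46.7% to 60.0%. Without N3 that share was 52.6% and the median 0.08. The cause was not tested. Over the other lists, 606 of 640 counts of called genes stayed within 1.5 times the count from all libraries with a library left out, and 442 of 490 did under the other settings, with 30 lower and 18 higher. Fits within a number compare 2 libraries with 2. Depth limits Aldh1l2 in NRK-52E and Aldh1l1 and Pck1 in both lines, where counts were few or 0.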
